A study of Mus musculus with 12 samples.

Results

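The genes described here are 48 that act in DNA replication (22 S phase genes) and in cell division (26 mitotic genes), measured in naive splenic B cells with and without the transcriptional repressor Bcl6. They were taken from a list of symbols and looked up in the array annotation. Where a gene had several probe sets, the one with the highest mean was used. A gene was kept where its log2 value was 4 or more on at least 2 arrays. This kept 46 of the 48 (22 S phase and 24 mitotic), out of 9307 genes kept of 18194 in all. Ccnb1 had no probe set that the annotation assigns to a single gene, and Foxm1 reached 4 on 1 array.

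The study used 12 Affymetrix arrays, 2 in each of 6 groups, to profile RNA of follicular (FO) and marginal zone (MZ) B cells from spleens of 10-week-old C57BL/6 females. Every mouse carried 1 copy of mb1-cre, which expresses Cre recombinase from early stages of the B lineage, so the wild-type controls carry Cre too. The genotypes were mb1-cre(+/-)Bcl6(+/+), called wild-type, mb1-cre(+/-)Bcl6(+/flox), called heterozygous, and mb1-cre(+/-)Bcl6(flox/flox), called homozygous. Cells were depleted of other lineages with antibodies that included those to CD95, CD138, Gr-1 and CD11b, then sorted as B220+AA4.1-CD21intCD23+ (FO) or B220+AA4.1-CD21highCD23low (MZ). The labels do not state whether both arrays of a group stem from different mice. The p-values therefore reflect only the spread between these samples, and that spread may be technical.

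A cell that enters the cycle first turns on S phase genes. E2F transcription factors and cyclin E start this programme. Cdc6, Cdt1 and the MCM helicase license origins, and the clamp Pcna and the nucleotide-making enzymes then serve DNA synthesis. Mitotic genes follow in G2 and M, when Cdk1 with cyclins A and B, the Aurora and Polo kinases, the spindle checkpoint and the kinesin motors condense, align and separate the chromosomes. Naive FO and MZ B cells are mostly resting cells. In sorted bulk RNA, a higher level can mean more cycling cells or more RNA per cell, and these cannot be told apart here.

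The values are log2 expression values with a lower limit set by the background correction, 2.21262 for FO and 2.21924 for MZ arrays. If the 2 limits stem from separate normalization runs, an offset between runs is part of every FO to MZ difference, and run and cell type cannot be told apart. Fcer2a, which encodes CD23, read 13.63 to 14.25 on FO and 8.85 to 9.50 on MZ arrays, and Cr2, which encodes CD21, read 12.07 to 13.42 on FO and 14.05 to 14.88 on MZ arrays, the order of the sort gates. One of the 2 Bcl6 probe sets read 4.86 to 5.61 on FO wild-type and heterozygous and 2.36 and 2.48 on FO homozygous arrays, and it lay at the limit on every MZ array. The other read 8.29 to 8.81 on MZ wild-type and 9.95 to 10.37 on MZ homozygous arrays. The labels do not name the exons between the flox sites, and the genotype labels are therefore checked by neither. S100a8, a neutrophil gene, exceeded 4 on 4 arrays: FO heterozygous 1, FO homozygous 1, MZ wild-type 1 and MZ homozygous 1. MZ wild-type 1 also had a Gapdh control signal 6.90 higher at the 3' than at the 5' end, against -0.20 to 0.63 on the other arrays.

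Both class means were higher on every MZ array than on every FO array, and the mitotic mean differed more than the S phase mean between the 2 arrays of each group. The mean log2 value of the 24 mitotic genes was 5.48 and 4.60 on FO wild-type, 5.07 and 4.72 on FO heterozygous, 5.67 and 4.93 on FO homozygous, 8.74 and 6.90 on MZ wild-type, 7.06 and 6.54 on MZ heterozygous, and 9.48 and 8.03 on MZ homozygous arrays, with replicate 1 given first here and throughout. All 6 MZ arrays thus lay above all 6 FO arrays, and MZ homozygous 1 was the highest. The mean of the 22 S phase genes was 6.99 and 6.97 on FO wild-type, 7.02 and 6.82 on FO heterozygous, 7.17 and 6.91 on FO homozygous, 8.74 and 7.73 on MZ wild-type, 7.74 and 7.71 on MZ heterozygous, and 9.05 and 8.42 on MZ homozygous arrays. It separated FO from MZ arrays as well, over a narrower range. Both means include genes that passed the filter through MZ arrays alone. Among MZ arrays, wild-type 1 and both homozygous arrays stood above wild-type 2 and both heterozygous arrays in both class means.

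**Figure D1:**
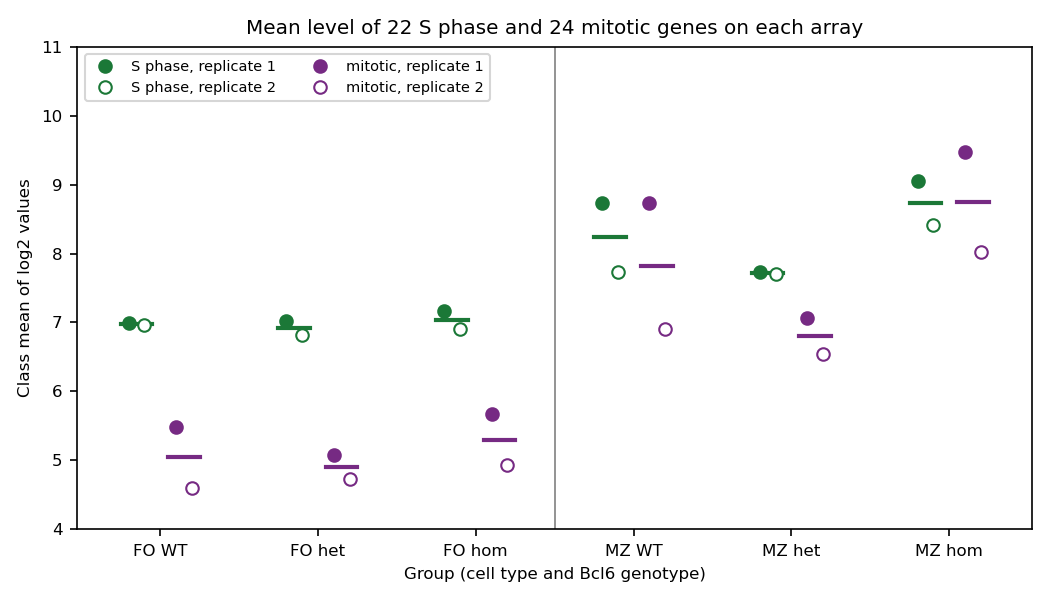
Mean log2 value of the 22 S phase (green) and 24 mitotic (purple) genes on each array; filled points are replicate 1, open points replicate 2, and bars are the means of a pair. The mitotic means of FO arrays lie between 4.60 and 5.67 and those of MZ arrays between 6.54 and 9.48.

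Because the classes are known to be driven through different promoter elements, the promoters were read from the RefSeq promoter table (GRCm38.p6), over 250 bases before to 50 after the start site. It held 41 promoters of 38 of the 48 genes. Aurkb, Ccna2, Ccne2, Foxm1, Gins1, Gins2, Kif20a, Mcm4, Stmn1 and Tpx2 were not matched. Both strands were searched for the E2F element (TTTCCCGC, TTTGGCGC or TTTCGCGC), the cell cycle homology region, CHR, bound by the DREAM and MuvB complexes (TTTGAA or TTCGAA), and the CCAAT box bound by NF-Y (CCAAT). An E2F element occurred in 8 of 21 S phase promoters (38.1%), in 1 of 20 mitotic promoters (5.0%) and in 1.84% of all 32851 promoters in the table. A CHR occurred in 4 of 21 S phase (19.0%) and 14 of 20 mitotic promoters (70.0%), against 19.2% of all. A CCAAT box occurred in 15 S phase (71.4%) and 17 mitotic promoters (85.0%), against 37.4% of all. CHR and CCAAT occurred together in 70.0% of mitotic, 19.0% of S phase and 7.52% of all promoters. A match is a run of letters, not evidence of binding.

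The stretches below are the 250 bases before the start site of 4 genes, shown because they hold the elements that set the classes apart. Capitals mark E2F, CHR and CCAAT matches on either strand, and where E2F matches overlap they form 1 longer run. Mcm6 (chr1:128359706-128359955, minus strand) and Mcm5 (chr8:75109259-75109508, plus strand) are S phase genes with overlapping E2F elements and CCAAT boxes. Among the mitotic genes that were matched, Cdk1 (chr10:69352913-69353162, minus strand) is the 1 with an E2F element, beside CHR and CCAAT matches. Kif11 (chr19:37376132-37376381, plus strand) has a CCAAT box at -45 and a CHR at -19 from the start site and no E2F element.
Mcm6: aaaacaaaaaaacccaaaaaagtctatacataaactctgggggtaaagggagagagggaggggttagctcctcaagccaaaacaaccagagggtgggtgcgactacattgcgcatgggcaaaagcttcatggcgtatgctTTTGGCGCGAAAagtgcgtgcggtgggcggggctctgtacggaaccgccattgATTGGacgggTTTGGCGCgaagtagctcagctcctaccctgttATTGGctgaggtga
Mcm5: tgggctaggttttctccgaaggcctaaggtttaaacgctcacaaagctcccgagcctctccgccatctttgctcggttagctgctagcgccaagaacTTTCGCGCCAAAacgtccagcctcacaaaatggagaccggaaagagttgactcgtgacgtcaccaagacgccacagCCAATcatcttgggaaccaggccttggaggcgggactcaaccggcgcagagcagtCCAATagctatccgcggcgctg
Cdk1: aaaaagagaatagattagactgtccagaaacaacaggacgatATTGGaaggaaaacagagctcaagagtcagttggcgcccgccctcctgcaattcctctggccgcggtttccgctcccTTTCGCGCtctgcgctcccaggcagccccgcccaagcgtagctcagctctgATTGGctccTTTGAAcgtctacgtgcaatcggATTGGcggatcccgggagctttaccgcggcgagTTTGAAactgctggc
Kif11: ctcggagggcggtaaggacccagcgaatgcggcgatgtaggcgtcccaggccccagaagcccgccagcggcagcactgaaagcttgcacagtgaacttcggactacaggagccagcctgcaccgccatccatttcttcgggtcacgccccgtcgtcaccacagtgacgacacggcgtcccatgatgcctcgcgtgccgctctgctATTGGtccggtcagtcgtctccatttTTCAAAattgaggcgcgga

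The origin licensing and helicase genes differed among themselves in how far FO and MZ arrays were apart. Mcm6, a subunit of the replicative helicase, was at 9.94 and 9.98 on FO wild-type, 9.89 and 9.90 on FO heterozygous, 10.17 and 9.90 on FO homozygous, 11.35 and 10.11 on MZ wild-type, 9.91 and 10.13 on MZ heterozygous, and 11.37 and 10.76 on MZ homozygous arrays. Mcm5, another subunit, was at 11.42 and 11.22 on FO wild-type, 11.30 and 11.08 on FO heterozygous, 11.17 and 10.94 on FO homozygous, 12.01 and 10.92 on MZ wild-type, 11.11 and 10.75 on MZ heterozygous, and 12.57 and 11.66 on MZ homozygous arrays. For both, MZ wild-type 1 and the 2 MZ homozygous arrays stood above every FO array, and the other 3 MZ arrays lay among or below the FO arrays. The same 3 arrays were highest for Mcm7, at 11.61 and 11.19 on FO wild-type, 11.35 and 11.55 on FO heterozygous, 11.57 and 11.47 on FO homozygous, 12.12 and 11.23 on MZ wild-type, 11.70 and 11.31 on MZ heterozygous, and 12.70 and 12.01 on MZ homozygous arrays. Mcm2 did not follow it, at 7.97 and 9.28 on FO wild-type, 8.42 and 8.65 on FO heterozygous, 8.66 and 8.56 on FO homozygous, 8.03 and 8.04 on MZ wild-type, 7.56 and 8.23 on MZ heterozygous, and 9.02 and 8.77 on MZ homozygous arrays. Its highest array was FO wild-type 2, and the 2 MZ homozygous arrays exceeded the other 4 MZ arrays. Mcm3, Mcm4 and Cdt1, the licensing factor that loads the helicase, ranged over 1.53, 1.0 and 1.74 log2 units across the 12 arrays, with FO and MZ arrays overlapping.

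Cdc6, which recruits the helicase to origins, had a range of 5.01, exceeded among S phase genes only by Uhrf1. It was at 3.65 and 2.93 on FO wild-type, 5.19 and 2.64 on FO heterozygous, 4.64 and 2.95 on FO homozygous, 7.60 and 5.31 on MZ wild-type, 5.43 and 5.03 on MZ heterozygous, and 7.65 and 6.37 on MZ homozygous arrays. FO heterozygous 1 overlapped with the lower MZ arrays. Mcm10, which helps to activate the helicase, was at 2.21 and 2.56 on FO wild-type, 2.21 and 2.21 on FO heterozygous, 2.21 and 2.21 on FO homozygous, 6.07 and 3.84 on MZ wild-type, 3.89 and 3.89 on MZ heterozygous, and 6.34 and 5.26 on MZ homozygous arrays. Cdc45, part of the active helicase, was at 3.17 and 2.37 on FO wild-type, 2.39 and 2.39 on FO heterozygous, 2.65 and 2.39 on FO homozygous, 5.95 and 4.10 on MZ wild-type, 4.55 and 4.15 on MZ heterozygous, and 6.00 and 5.25 on MZ homozygous arrays. FO arrays of both genes lay between 2.21 and 3.17, and all 6 MZ arrays lay above them. Gins1 and Gins2 encode subunits of the GINS complex of the same helicase. Gins1 was at 5.59 and 5.83 on FO wild-type, 5.33 and 5.58 on FO heterozygous, 5.16 and 5.70 on FO homozygous, 7.51 and 6.11 on MZ wild-type, 5.93 and 6.00 on MZ heterozygous, and 7.70 and 7.02 on MZ homozygous arrays. Gins2 was at 2.29 and 2.29 on FO wild-type, 2.36 and 2.29 on FO heterozygous, 2.29 and 2.29 on FO homozygous, 4.99 and 4.18 on MZ wild-type, 4.58 and 4.31 on MZ heterozygous, and 6.08 and 4.78 on MZ homozygous arrays. Every MZ array exceeded every FO array for both, and MZ homozygous 1 was the highest.

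Of the regulators of S phase entry, E2f1 and E2f2 lay in opposite order in the 2 cell types. E2f1, an activating E2F factor, was at 3.53 and 3.53 on FO wild-type, 3.53 and 3.53 on FO heterozygous, 3.71 and 3.53 on FO homozygous, 5.51 and 5.53 on MZ wild-type, 5.53 and 5.39 on MZ heterozygous, and 5.89 and 5.93 on MZ homozygous arrays. E2f2, another activating member, was at 9.41 and 9.41 on FO wild-type, 9.31 and 9.29 on FO heterozygous, 9.50 and 9.84 on FO homozygous, 8.52 and 8.60 on MZ wild-type, 8.46 and 8.60 on MZ heterozygous, and 9.44 and 8.99 on MZ homozygous arrays. All MZ arrays lay above all FO arrays for E2f1, whereas MZ wild-type and heterozygous arrays lay below every FO array for E2f2. E2f1 was nearly level within each cell type, at 3.53 on 5 FO arrays and within 0.02 of 5.51 on 3 MZ arrays. Both genes were higher on the 2 MZ homozygous arrays than on the other 4 MZ arrays. Ccne1 (cyclin E1), which activates Cdk2 at S phase entry, was at 5.79 and 5.78 on FO wild-type, 5.42 and 5.78 on FO heterozygous, 5.95 and 5.88 on FO homozygous, 7.56 and 6.32 on MZ wild-type, 6.53 and 6.53 on MZ heterozygous, and 7.70 and 6.83 on MZ homozygous arrays. Ccne2, its relative cyclin E2, was at 3.61 and 2.72 on FO wild-type, 2.86 and 2.86 on FO heterozygous, 2.86 and 3.01 on FO homozygous, 5.23 and 4.31 on MZ wild-type, 4.12 and 4.33 on MZ heterozygous, and 5.33 and 5.75 on MZ homozygous arrays. FO and MZ arrays did not overlap for either cyclin.

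Pcna, the sliding clamp of the DNA polymerases, was at 12.76 and 13.23 on FO wild-type, 13.01 and 13.04 on FO heterozygous, 13.16 and 13.07 on FO homozygous, 13.57 and 12.67 on MZ wild-type, 12.43 and 12.51 on MZ heterozygous, and 13.76 and 13.11 on MZ homozygous arrays. FO and MZ arrays overlapped, and MZ heterozygous arrays were the lowest. Uhrf1, which carries DNA methylation through replication, was at 5.19 and 5.20 on FO wild-type, 5.39 and 4.60 on FO heterozygous, 6.32 and 4.94 on FO homozygous, 10.62 and 8.57 on MZ wild-type, 8.78 and 8.55 on MZ heterozygous, and 11.16 and 9.85 on MZ homozygous arrays. Every MZ array lay above every FO array, and its range of 6.55 was the widest of the S phase class. Of the nucleotide-making enzymes, thymidine kinase (Tk1) was at 6.11 and 6.97 on FO wild-type, 6.68 and 6.92 on FO heterozygous, 7.16 and 7.38 on FO homozygous, 8.77 and 8.83 on MZ wild-type, 8.56 and 9.10 on MZ heterozygous, and 9.08 and 9.10 on MZ homozygous arrays. Thymidylate synthase (Tyms) was at 2.98 and 2.64 on FO wild-type, 2.64 and 2.64 on FO heterozygous, 2.64 and 2.64 on FO homozygous, 4.18 and 4.58 on MZ wild-type, 4.36 and 4.34 on MZ heterozygous, and 4.20 and 4.63 on MZ homozygous arrays. These genes were nearly level across the 6 MZ arrays and did not follow the order of the mitotic genes there. The large subunit of ribonucleotide reductase, Rrm1, was at 8.54 and 8.71 on FO wild-type, 8.66 and 8.32 on FO heterozygous, 8.60 and 8.39 on FO homozygous, 9.63 and 8.21 on MZ wild-type, 8.48 and 8.26 on MZ heterozygous, and 9.62 and 8.87 on MZ homozygous arrays. Its small subunit, Rrm2, was at 6.72 and 5.72 on FO wild-type, 6.34 and 6.11 on FO heterozygous, 7.16 and 6.32 on FO homozygous, 9.80 and 8.11 on MZ wild-type, 8.36 and 7.74 on MZ heterozygous, and 10.36 and 9.29 on MZ homozygous arrays. FO and MZ arrays overlapped for Rrm1 and were apart for Rrm2.

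**Figure D2:**
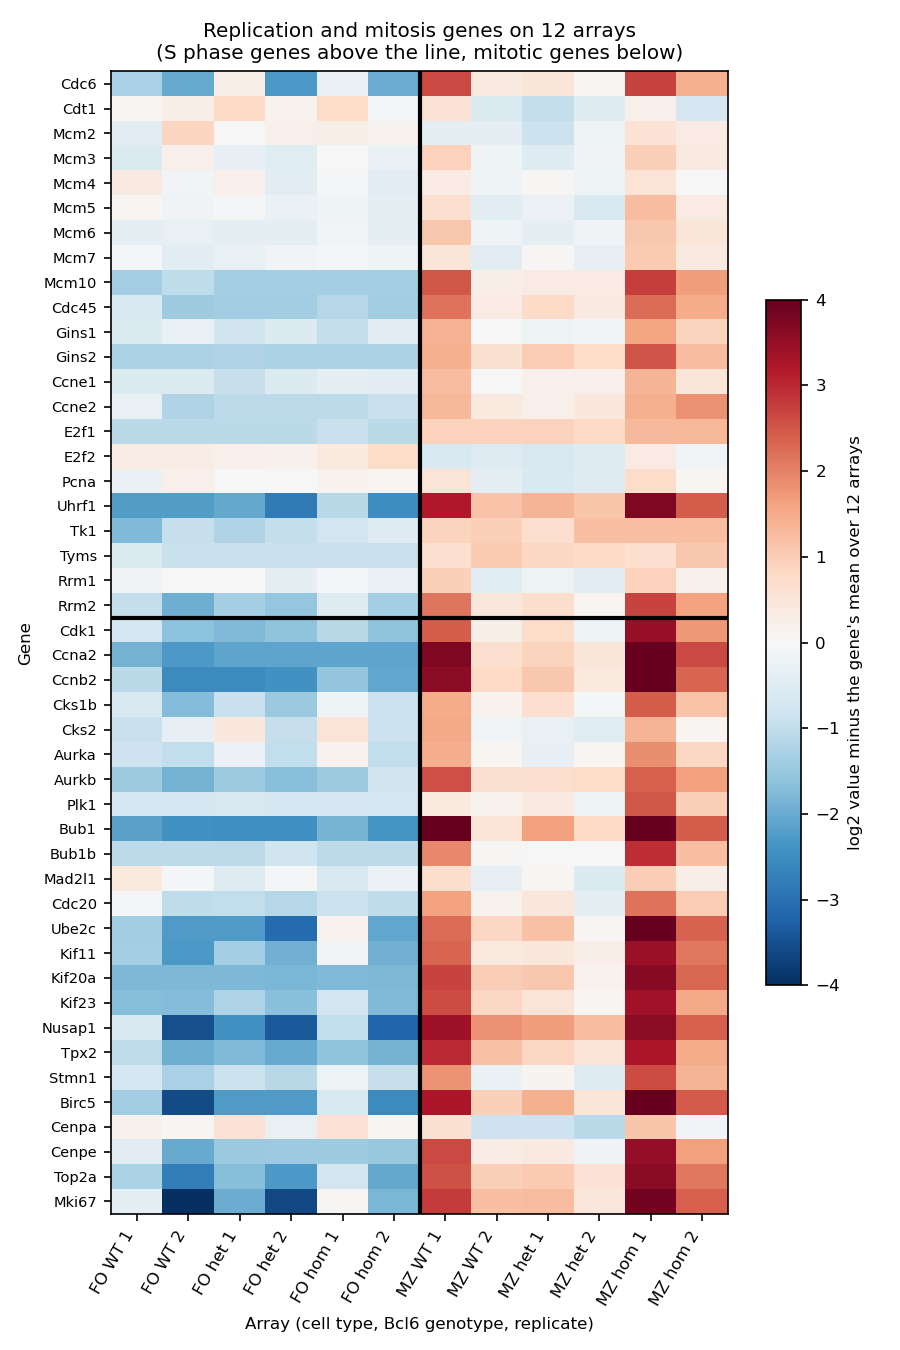
Log2 value of each of the 46 genes minus its own mean over the 12 arrays, for S phase genes (above the line) and mitotic genes (below), in columns of FO arrays (left) and MZ arrays (right). MZ wild-type 1 and MZ homozygous 1 carry the darkest red in the mitotic block, and MZ homozygous 2 is redder than MZ wild-type 2 and both MZ heterozygous arrays.

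Among mitotic genes, the order of the MZ arrays repeated from gene to gene. MZ wild-type 1, homozygous 1 and homozygous 2 stood above the other 3 MZ arrays for 24 of 24 mitotic and 15 of 22 S phase genes, against 10.0% of all tested genes. MZ homozygous 1 was the highest MZ array for 22 mitotic and 16 S phase genes, against 15.1%. Both orders had been read from the class means of these same genes, so high counts were partly built in. Of the kinases and cyclins, Cdk1, the kinase that drives entry into mitosis, was at 4.54 and 3.60 on FO wild-type, 3.50 and 3.65 on FO heterozygous, 4.14 and 3.65 on FO homozygous, 7.66 and 5.48 on MZ wild-type, 5.99 and 5.07 on MZ heterozygous, and 8.75 and 6.98 on MZ homozygous arrays. Ccna2 (cyclin A2) was at 3.29 and 2.90 on FO wild-type, 3.06 and 3.06 on FO heterozygous, 3.06 and 3.06 on FO homozygous, 8.91 and 5.84 on MZ wild-type, 6.09 and 5.66 on MZ heterozygous, and 9.45 and 7.84 on MZ homozygous arrays. Ccnb2 (cyclin B2) was at 4.01 and 2.55 on FO wild-type, 2.56 and 2.68 on FO heterozygous, 3.52 and 3.03 on FO homozygous, 8.68 and 5.88 on MZ wild-type, 6.18 and 5.50 on MZ heterozygous, and 9.17 and 7.41 on MZ homozygous arrays. All MZ arrays exceeded all FO arrays for these 3, and MZ heterozygous arrays stayed near MZ wild-type 2. Plk1, the Polo kinase of spindle assembly and cytokinesis, was at 3.03 and 3.03 on FO wild-type, 3.07 and 3.03 on FO heterozygous, 3.04 and 3.03 on FO homozygous, 4.11 and 3.85 on MZ wild-type, 4.08 and 3.52 on MZ heterozygous, and 6.20 and 4.69 on MZ homozygous arrays. Here both MZ homozygous arrays exceeded both wild-type arrays, and FO arrays sat on one level. Aurkb, the kinase of the chromosomal passenger complex, was at 4.69 and 4.21 on FO wild-type, 4.69 and 4.43 on FO heterozygous, 4.69 and 5.32 on FO homozygous, 8.70 and 6.73 on MZ wild-type, 6.77 and 6.83 on MZ heterozygous, and 8.50 and 7.74 on MZ homozygous arrays. Cks1b, a small Cdk-binding protein, was at 9.52 and 8.38 on FO wild-type, 9.24 and 8.65 on FO heterozygous, 9.95 and 9.26 on FO homozygous, 11.61 and 10.28 on MZ wild-type, 10.80 and 10.04 on MZ heterozygous, and 12.56 and 11.27 on MZ homozygous arrays. FO and MZ arrays did not overlap for either, with MZ wild-type 1 and homozygous 1 at the top. Aurka, the Aurora kinase of the spindle poles, and Cks2 ranged over 2.86 and 2.40 log2 units, and their FO and MZ arrays overlapped.

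Of the spindle checkpoint and anaphase genes, Bub1, a checkpoint kinase at the kinetochore, was at 2.57 and 2.27 on FO wild-type, 2.26 and 2.26 on FO heterozygous, 2.85 and 2.32 on FO homozygous, 8.71 and 5.26 on MZ wild-type, 6.34 and 5.51 on MZ heterozygous, and 8.96 and 7.14 on MZ homozygous arrays. Bub1b, which encodes BubR1, was at 4.22 and 4.22 on FO wild-type, 4.22 and 4.48 on FO heterozygous, 4.22 and 4.22 on FO homozygous, 7.20 and 5.32 on MZ wild-type, 5.30 and 5.29 on MZ heterozygous, and 8.22 and 6.48 on MZ homozygous arrays. FO arrays were close to level for both, and MZ wild-type 1 and homozygous 1 stood above the other 4 MZ arrays. Cdc20, the activator of the anaphase-promoting complex, was at 8.09 and 7.13 on FO wild-type, 7.15 and 7.02 on FO heterozygous, 7.29 and 7.14 on FO homozygous, 9.77 and 8.30 on MZ wild-type, 8.61 and 7.78 on MZ heterozygous, and 10.33 and 9.15 on MZ homozygous arrays. Ube2c, the ubiquitin-conjugating enzyme of that complex, was at 4.28 and 3.39 on FO wild-type, 3.39 and 2.58 on FO heterozygous, 5.81 and 3.58 on FO homozygous, 7.89 and 6.49 on MZ wild-type, 6.83 and 5.69 on MZ heterozygous, and 9.94 and 8.02 on MZ homozygous arrays. For Ube2c both MZ homozygous arrays were above both wild-type arrays, while FO homozygous 1 reached into the MZ range. Mad2l1, another checkpoint gene, ranged over 1.60 log2 units with FO and MZ arrays overlapping.

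Of the spindle and cytokinesis genes, Kif11, the motor that pushes the spindle poles apart, was at 3.45 and 2.51 on FO wild-type, 3.43 and 2.87 on FO heterozygous, 4.68 and 2.87 on FO homozygous, 7.13 and 5.19 on MZ wild-type, 5.26 and 5.06 on MZ heterozygous, and 8.24 and 6.90 on MZ homozygous arrays. Kif20a, a kinesin of cytokinesis, was at 2.47 and 2.47 on FO wild-type, 2.47 and 2.44 on FO heterozygous, 2.49 and 2.47 on FO homozygous, 6.98 and 5.24 on MZ wild-type, 5.34 and 4.40 on MZ heterozygous, and 7.91 and 6.56 on MZ homozygous arrays. Kif23, a subunit of centralspindlin, was at 4.37 and 4.34 on FO wild-type, 4.85 and 4.40 on FO heterozygous, 5.32 and 4.33 on FO homozygous, 8.70 and 6.90 on MZ wild-type, 6.61 and 6.15 on MZ heterozygous, and 9.44 and 7.60 on MZ homozygous arrays. All MZ arrays lay above all FO arrays for these kinesins, and FO homozygous 1 was the highest FO array for Kif11 and Kif23. Nusap1, which bundles spindle microtubules, was at 5.53 and 2.61 on FO wild-type, 3.71 and 2.77 on FO heterozygous, 5.16 and 2.96 on FO homozygous, 9.54 and 7.95 on MZ wild-type, 7.80 and 7.38 on MZ heterozygous, and 9.70 and 8.52 on MZ homozygous arrays. Tpx2, which nucleates spindle microtubules, was at 3.75 and 2.82 on FO wild-type, 3.01 and 2.77 on FO heterozygous, 3.17 and 2.90 on FO homozygous, 7.76 and 5.96 on MZ wild-type, 5.62 and 5.29 on MZ heterozygous, and 8.04 and 6.28 on MZ homozygous arrays. Birc5 (survivin), of the chromosomal passenger complex, was at 4.60 and 2.41 on FO wild-type, 3.74 and 3.74 on FO heterozygous, 5.36 and 3.44 on FO homozygous, 9.25 and 6.94 on MZ wild-type, 7.41 and 6.48 on MZ heterozygous, and 10.07 and 8.44 on MZ homozygous arrays. All MZ arrays exceeded all FO arrays, although the 2 FO wild-type arrays of Nusap1 and Birc5 stood at opposite ends of most of the FO range. Stmn1, which destabilises microtubules and is high in dividing lymphocytes, was at 9.08 and 8.49 on FO wild-type, 8.93 and 8.69 on FO heterozygous, 9.58 and 8.88 on FO homozygous, 11.59 and 9.52 on MZ wild-type, 9.91 and 9.29 on MZ heterozygous, and 12.41 and 11.16 on MZ homozygous arrays. Its FO homozygous 1 value exceeded MZ heterozygous 2, so the cell types overlapped.

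Of the chromosome genes, Mki67, the widely used marker of cycling cells, had the widest range of all 46 genes, 8.02 log2 units. It was at 7.40 and 3.62 on FO wild-type, 5.81 and 4.19 on FO heterozygous, 7.83 and 5.97 on FO homozygous, 10.58 and 8.98 on MZ wild-type, 9.01 and 8.23 on MZ heterozygous, and 11.64 and 10.19 on MZ homozygous arrays. Top2a, which untangles sister chromatids, was at 6.14 and 4.62 on FO wild-type, 5.70 and 5.09 on FO heterozygous, 6.65 and 5.34 on FO homozygous, 9.96 and 8.35 on MZ wild-type, 8.45 and 7.97 on MZ heterozygous, and 11.01 and 9.50 on MZ homozygous arrays. Cenpe, the kinetochore motor, was at 3.95 and 2.39 on FO wild-type, 2.93 and 2.96 on FO heterozygous, 2.99 and 2.88 on FO homozygous, 7.03 and 4.70 on MZ wild-type, 4.77 and 4.27 on MZ heterozygous, and 7.93 and 6.05 on MZ homozygous arrays. Mki67, Top2a and Cenpe were lower on every FO than on every MZ array, yet Mki67 in FO cells ran from 3.62 to 7.83, with the lowest and next highest values in the same wild-type group. Cenpa, the centromere histone, overlapped between cell types and ranged over 2.19.

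Homozygous MZ arrays were compared with heterozygous MZ arrays, which differ by the second Bcl6 allele. All 46 genes had positive differences (50.3% of all tested genes did), with a median of 0.99 for S phase and 2.09 for mitotic genes, against 0.00 over all tested genes. None passed the threshold of limma with Benjamini-Hochberg adjustment (0.0322% of all tested genes did), while 33 of the 46 had p under 0.05 before adjustment, all higher, 15 S phase and 18 mitotic (2.76% of all tested genes were higher at that level). Both homozygous arrays exceeded both heterozygous arrays for 18 of 22 S phase and 24 of 24 mitotic genes, against 18.4% of all tested genes. The smallest p belonged to Kif20a, with a difference of 2.36 ± 0.60 (SE; adjusted p = 0.649), and Plk1, with 1.64 ± 0.42 (adjusted p = 0.649). Among S phase genes these were Ccne2, at 1.32 ± 0.36 (adjusted p = 0.752), and E2f2, at 0.69 ± 0.19 (adjusted p = 0.759). Ccna2 and Ube2c had the largest differences, 2.77 ± 0.87 (adjusted p = 0.822) and 2.72 ± 0.90 (adjusted p = 0.827). Stmn1 differed by 2.18 ± 0.66, Mcm10 by 1.91 ± 0.62 and Rrm2 by 1.78 ± 0.62, whereas Tyms differed by 0.06 ± 0.21 and Tk1 by 0.26 ± 0.29. Without MZ homozygous 1 the medians were 0.67 and 1.21, and without homozygous 2 they were 1.27 and 2.87.

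By role, the mitotic groups had larger median differences than the S phase groups in this comparison. The medians were 1.02 for 12 licensing and helicase genes, 0.71 for 4 regulators of S phase entry, 1.40 for the clamp and chromatin pair and 0.57 for 4 nucleotide enzymes. They were 1.57 for 8 kinases, cyclins and regulators, 2.06 for 5 checkpoint and anaphase genes, and 2.18 for both the 7 spindle and cytokinesis genes and the 4 chromosome genes. The S phase and mitotic values were not tested against each other.

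The comparison with wild-type MZ arrays asks for the effect of losing both alleles. Here 45 of 46 differences were positive (38.9% of all tested genes were), with medians of 0.55 for S phase and 1.08 for mitotic genes against -0.08 over all genes. None was called by limma (0.0645% of all tested genes were), and 3 had p under 0.05 before adjustment, all higher (2.27% of all tested genes were higher at that level). These were Plk1, at 1.46 ± 0.42 (adjusted p = 0.669), E2f2, at 0.65 ± 0.19 (adjusted p = 0.675), and E2f1, at 0.39 ± 0.14 (adjusted p = 0.801). The homozygous arrays did not overlap with the wild-type arrays and were higher for 5 S phase genes (Mcm2, Ccne2, E2f1, E2f2 and Tk1) and 2 mitotic genes (Plk1 and Ube2c), against 9.96% of all tested genes. For the other 39 genes at least 1 wild-type array lay within or above the homozygous pair. Mki67, for example, differed by 1.14 ± 1.24 (adjusted p = 0.877). Without MZ wild-type 2 the medians became -0.10 and -0.03, so the direction rests on that array.

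Heterozygous minus wild-type differences in MZ cells were positive for 1 of 46 genes (42.0% of all tested genes) and negative for 45, with medians of -0.55 and -1.02 against -0.05 over all tested genes. None passed limma (0.0107% of all tested genes did) and none had p under 0.05 before adjustment (3.08% of all tested genes had, in either direction). Both heterozygous arrays were below both wild-type arrays for Gins1, Pcna, Cks2, Bub1b, Kif23, Nusap1 and Tpx2, against 17.8% of all tested genes. Kif23 had a difference of -1.42 ± 0.70 (adjusted p = 0.792) and Ccna2 of -1.50 ± 0.87 (adjusted p = 0.792). Without MZ wild-type 1, the array with the large 3' to 5' difference, the medians were -0.06 and -0.08. Without wild-type 2 they were -1.09 and -1.95 and 5 of the 46 genes passed, all lower (Mcm6, Mcm10, Gins1, Ccna2 and Aurkb), as did 4.46% of all tested genes.

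**Figure D3:**
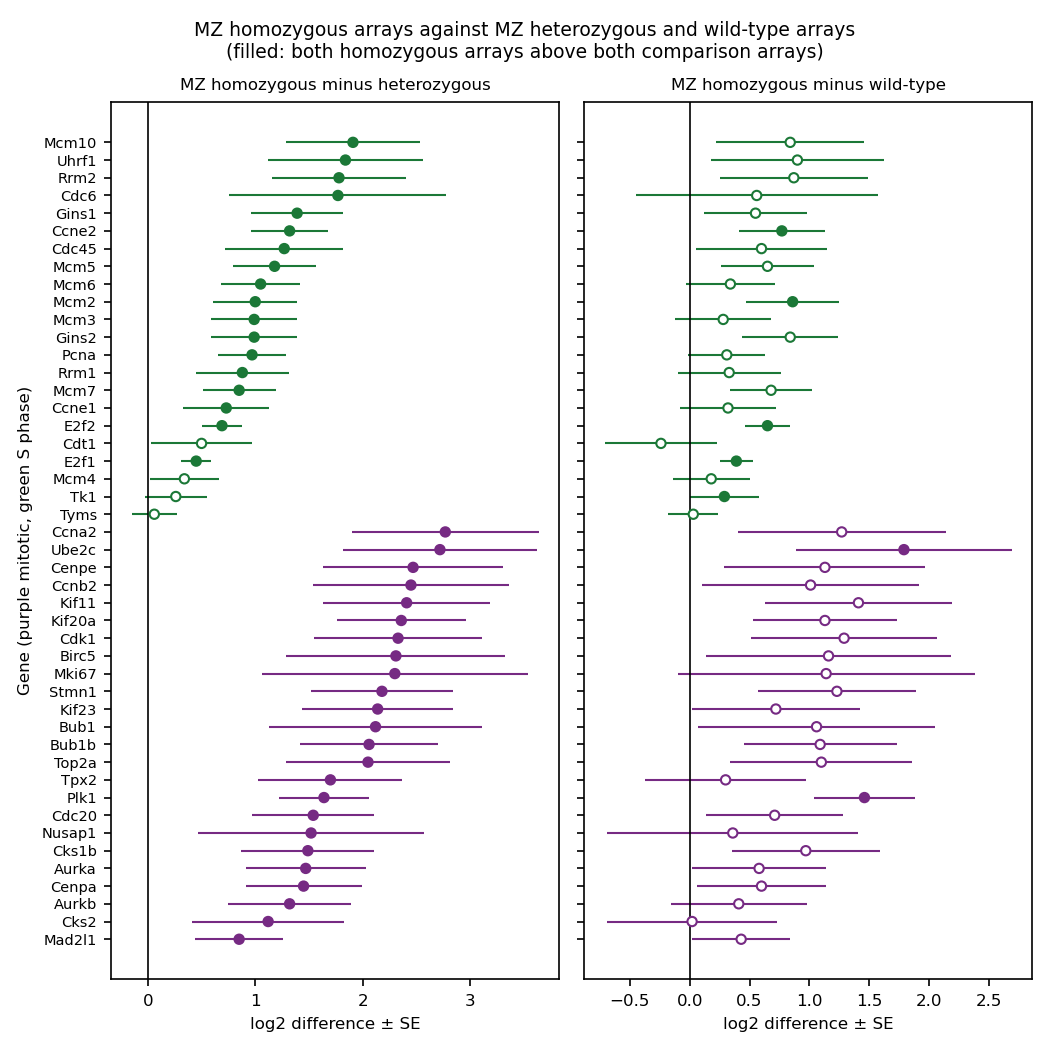
Log2 difference ± SE (horizontal) of each gene (vertical) between MZ homozygous and MZ heterozygous arrays (left) and between MZ homozygous and MZ wild-type arrays (right), S phase genes in green and mitotic genes in purple; filled points mark genes whose 2 homozygous arrays both lie above both comparison arrays. In the left panel all 46 points lie to the right of 0 and 42 are filled, and in the right panel 45 lie to the right of 0 and 7 are filled.

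In FO cells the genotypes were closer together. Homozygous minus wild-type medians were 0.07 for S phase and 0.18 for mitotic genes, against 0.00 over all tested genes. All FO medians here include genes kept through MZ arrays alone, some of which gave 1 fixed value on most FO arrays. Gins2 and Plk1, for example, gave 1 value on 5 FO arrays and differed by 0. The small medians are therefore not a measure of a weaker genotype effect in FO cells. None was called by limma (0.430% of all tested genes were), and Tk1 alone had p under 0.05 before adjustment (4.57% of all tested genes were higher at that level), at 0.73 ± 0.29 (adjusted p = 0.633). Both homozygous arrays were above both wild-type arrays for Ccne1, E2f2 and Tk1 (18.0% of all tested genes) and below them for Mcm5 and Mad2l1 (15.9%). Mki67 had the largest difference, 1.39 ± 1.24 (adjusted p = 0.951), and Mad2l1 the most negative, -0.58 ± 0.41 (adjusted p = 0.932). Without FO homozygous 1, the array with the highest S100a8 value, the medians were -0.07 and -0.08. Against heterozygous FO arrays the medians were 0.07 and 0.26, none was called by limma (0.0752% of all tested genes were) and none had p under 0.05 before adjustment (3.03% of all tested genes had, in either direction). The homozygous arrays were both higher for 11 of 46 genes, against 13.6% of all tested genes. Heterozygous minus wild-type medians in FO cells were -0.12 and -0.01, with none called by limma (0% of all tested genes were) and none with p under 0.05 before adjustment (1.98% of all tested genes had, in either direction).

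Averaged over both cell types, homozygous minus wild-type differences were positive for 42 of 46 genes (43.3% of all tested genes), with medians of 0.23 and 0.57 against -0.04 over all tested genes. None was called by limma (0.462% of all tested genes were), and 4 had p under 0.05 before adjustment, all higher (4.38% of all tested genes were): E2f2, with 0.45 ± 0.13 (adjusted p = 0.293), E2f1, with 0.24 ± 0.10 (adjusted p = 0.498), Tk1, with 0.51 ± 0.20 (adjusted p = 0.498), and Plk1, with 0.73 ± 0.30 (adjusted p = 0.498). Without MZ wild-type 2 the S phase median was -0.02. Whether the homozygous effect differed between MZ and FO cells was tested as an interaction, and none of the 46 passed (0.0107% of all tested genes did), with Plk1 alone under 0.05 before adjustment (0.666% of all tested genes were higher at that level), at 1.46 ± 0.59 (adjusted p = 0.975). Plk1 passed the filter through MZ arrays alone and gave 3.03 on 5 FO arrays, with an FO difference of 0. Both Plk1 values here therefore rest on its MZ arrays and are no comparison of the cell types.

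MZ and FO cells were compared within each genotype, and the filter bears on the counts. Of the 46 genes, 14 reached log2 4 on fewer than 2 FO arrays and were kept through their MZ arrays, so a difference in them was built into the choice: Mcm10, Cdc45, Gins2, Ccne2, E2f1, Tyms, Ccna2, Ccnb2, Plk1, Bub1, Kif11, Kif20a, Tpx2 and Cenpe. Counts are therefore read from the 32 genes that also passed on FO arrays. A gene can still pass there on a fixed lower level above 4. Bub1b, for one, gave 4.22 on 5 FO arrays, and it is among the homozygous calls below. In wild-type mice 3 of these 16 S phase genes (Uhrf1, Tk1 and Rrm2) and 7 of these 16 mitotic genes (Aurkb, Ube2c, Kif23, Nusap1, Birc5, Top2a and Mki67) were higher in MZ cells and E2f2 was lower, where 7.16% of all genes past the filter on FO arrays were higher and 12.1% lower. The median differences were 0.43 and 2.27. All 6 FO arrays lay below all 6 MZ arrays for 5 of these S phase and 9 of these mitotic genes, against 7.63%.

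Uhrf1 was higher by 4.40 ± 0.72 (adjusted p = 0.00293) and Tk1 by 2.26 ± 0.29 (adjusted p = 0.000752). Of the mitotic genes Aurkb was higher by 3.26 ± 0.57 (adjusted p = 0.00394) and Nusap1, the largest, by 4.68 ± 1.05 (adjusted p = 0.0136). Mki67 was higher by 4.27 ± 1.24 (adjusted p = 0.04). E2f2 differed by -0.85 ± 0.19 (adjusted p = 0.0129). Several S phase genes had differences near 0, among them Pcna at 0.13 ± 0.32, Mcm4 at -0.05 ± 0.32 and Mcm5 at 0.15 ± 0.39, as did the mitotic genes Mad2l1 at 0.05 ± 0.41 and Cenpa at -0.23 ± 0.54. With the 14 genes included, 22 of 46 were called higher (10.7% of all tested genes) and 1 lower (11.5%), with medians of 1.13 for S phase and 3.22 for mitotic genes against -0.12 over all tested genes. Of the 14, E2f1 differed by 1.99 ± 0.14 (adjusted p = 2.24e-05) and Kif20a by 3.64 ± 0.60 (adjusted p = 0.00299).

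Calls between cell types depended on single arrays. Of the 23 wild-type calls, 9 held without each array in turn, of which 4 (Uhrf1, Tk1, Aurkb and Kif23) were genes that also passed the filter on FO arrays. The others were Gins2, E2f1, Tyms, Kif20a and Tpx2. Without FO wild-type 2, 14 were lost, and without MZ wild-type 1, 11 were lost. Ccna2 and Bub1 were lost without FO wild-type 2 (limma adjusted p 0.0529 and 0.0639) and Mcm10 without either FO wild-type array (0.0924). E2f2 was lost without either FO wild-type array or MZ wild-type 1 (highest adjusted p 0.0604), as was Ube2c (0.152). Mki67 was lost without any of 8 arrays (highest adjusted p 0.194), and Cdc45, Ccne2, Rrm2, Ccnb2, Kif11, Nusap1, Birc5 and Top2a without FO wild-type 2 or MZ wild-type 1. The S phase median was 0.47 without MZ wild-type 1.

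In homozygous mice 5 of the 16 S phase genes that passed on FO arrays (Gins1, Ccne1, Uhrf1, Tk1 and Rrm2) and 11 of the 16 mitotic genes (Cdk1, Cks1b, Aurkb, Bub1b, Cdc20, Ube2c, Kif23, Nusap1, Stmn1, Birc5 and Top2a) were higher in MZ cells and none lower, where 4.73% of all genes past that filter were higher and 11.4% lower. Their medians were 0.94 and 3.12. Uhrf1 was higher by 4.87 ± 0.72 (adjusted p = 0.00197), Nusap1 by 5.05 ± 1.05 (adjusted p = 0.0109), Top2a by 4.27 ± 0.76 (adjusted p = 0.00504), Gins1 by 1.93 ± 0.43 (adjusted p = 0.0149) and Cdk1 by 3.97 ± 0.78 (adjusted p = 0.00815). E2f2 and Cdt1 had negative differences without passing. All 14 genes kept through MZ arrays were called too, which makes 30 of 46 higher (8.27% of all tested genes) and 0 lower (10.8%), with medians of 1.56 and 3.88 against -0.17 over all tested genes. E2f2 was at -0.45 ± 0.19 (adjusted p = 0.139) and Mki67 at 4.02 ± 1.24 (adjusted p = 0.0557). Of the 30 calls 16 held without each array in turn, 4 of them (Uhrf1, Tk1, Aurkb and Top2a) in genes that passed on FO arrays, and 17 genes were called without FO homozygous 2 or without MZ homozygous 1. Gins1 was lost without FO homozygous 1 or MZ homozygous 1 (highest adjusted p 0.104), Cdk1 and Nusap1 without FO homozygous 2 or MZ homozygous 1 (0.0605 and 0.0782), and Ccne1 without any of 9 arrays (0.257).

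In heterozygous mice 2 of the 16 S phase genes that passed on FO arrays (Uhrf1 and Tk1) and 4 of the 16 mitotic genes (Aurkb, Ube2c, Nusap1 and Top2a) were higher in MZ cells and E2f2 was lower, where 6.59% of all genes past that filter were higher and 14.0% lower. Their medians were 0.06 and 1.62. Uhrf1 was higher by 3.66 ± 0.72 (adjusted p = 0.00753), Tk1 by 2.03 ± 0.29 (adjusted p = 0.00139) and Nusap1 by 4.35 ± 1.05 (adjusted p = 0.0188), and E2f2 differed by -0.77 ± 0.19 (adjusted p = 0.0192). With the genes kept through MZ arrays, 16 of 46 were higher (9.94% of all tested genes) and 1 lower (13.3%), with medians of 0.72 and 1.98 against -0.17 over all tested genes. Of these calls Tk1, E2f1 and Tyms held without each array in turn, and of the 3 only Tk1 passed the filter on FO arrays. The count fell to between 3 and 6 without any 1 FO or MZ heterozygous array. Uhrf1 lost its call without FO heterozygous 2 or MZ heterozygous 1 (highest adjusted p 0.0556), and Nusap1 and E2f2 without any 1 of the 4 heterozygous arrays (highest adjusted p 0.104 and 0.112). The MZ minus FO differences of the 3 genotypes were not tested against each other apart from the interaction above.

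**Figure D4:**
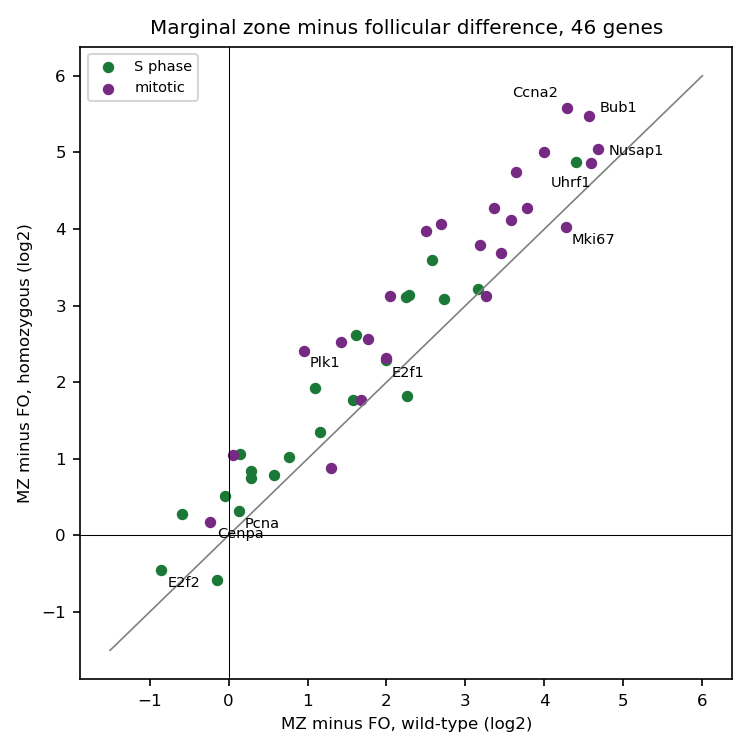
MZ minus FO log2 difference of each of the 46 genes in wild-type (horizontal) and homozygous (vertical) mice, with the line of equal values; S phase genes are green and mitotic genes purple. Most points lie to the upper right and above the line, E2f2 lies at -0.85 and -0.45, and Mki67 lies below the line at 4.27 and 4.02.

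For 9 of the kept genes at least 4 FO arrays gave the same value within 0.02: Mcm10, Cdc45, Gins2, E2f1, Tyms, Ccna2, Plk1, Bub1b and Kif20a. E2f1 sat at 3.53 on 5 FO arrays and Bub1b at 4.22 on 5. On MZ arrays E2f1 also lay within 0.02 of 5.51 on 3 arrays. Whether its MZ minus FO difference is one between lower limits of the probe set was not tested. Such levels may be floors of the probe set, which was not tested. If they are, the distance to MZ arrays depends on where the floor lies. In either case the FO SD near 0 lowers the residual SD shared by all groups and with it the p-values. Over all genes, 8288 had such a level in both cell types, and in 274 of them (3.31%) it differed by 0.5 or more between FO and MZ arrays, from -2.28 to 3.30. Foxm1, the transcription factor of mitotic genes, was one: 6 FO arrays at 2.21 and 4 MZ arrays at 3.37, with 4.26 on MZ homozygous 1.

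Replicate 1 carried more mitotic signal than replicate 2 in every group. Mitotic genes were higher on MZ wild-type 1 than on 2 for 24 of 24 (median 1.77) and on MZ homozygous 1 than on 2 for 24 of 24 (median 1.48), against 57.6% and 50.7% of all tested genes. The counts were 22 of 24 in MZ heterozygous (41.6% of all tested genes), 21 in FO wild-type (43.6%), 16 in FO heterozygous (39.4%) and 21 in FO homozygous arrays (47.1%), with medians of 0.53, 0.74, 0.24 and 0.54. For S phase genes the gap was 1.10 in MZ wild-type (17 of 22 higher) and 0.69 in MZ homozygous arrays (18 of 22), and between 0.00 and 0.14 in the other groups.

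Markers of other cells moved with part of this. The 7 neutrophil genes averaged 4.16 to 5.71 on the 4 arrays with S100a8 and 2.27 to 2.29 on the other 8. The granule genes among them differed. Ngp read 3.27 to 7.17 and Camp 3.77 to 6.28 on the 4 arrays, against 2.22 to 2.29 on the other 8. Ltf read 3.03 on FO homozygous 1 and 3.08 on MZ wild-type 1, and 2.24 to 2.29 elsewhere. Elane and Mpo lay between 2.21 and 2.30 on all 12 arrays. The 3 macrophage genes averaged 3.47 to 5.24 and were higher on replicate 1 in all 6 groups. The 3 T cell genes averaged 2.21 to 2.24, at the limit, and the 8 erythroid genes found averaged 3.38 to 4.35, with 4 to 6 of them near the limit. The 10 immediate early genes averaged 8.41 on MZ heterozygous 1 and 9.34 on FO wild-type 1, against 10.52 to 12.51 on the other arrays. The 4 germinal centre genes averaged 2.74 to 3.90 and the 5 plasmablast genes 6.91 to 8.11. Such means hide members that went opposite ways. Of the plasmablast genes, Prdm1 read 2.75 to 3.1 on FO and 5.75 to 7.67 on MZ arrays. Sdc1 read 6.38 to 7.99 on FO and 2.5 to 4.2 on MZ arrays, and Xbp1, Jchain and Irf4 overlapped. The erythroid gene Car2 read 6.68 on MZ wild-type 1, 2.49 to 2.59 on the other MZ arrays and 4.43 to 8.49 on FO arrays. The part of all these markers in the levels of the replication and mitosis genes was not tested.

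MZ homozygous 2 had a neutrophil mean of 2.27. It stood above the 3 other MZ arrays without S100a8 (wild-type 2 and both heterozygous) for 24 of 24 mitotic genes, by a median of 1.21 over their mean, and for 19 of 22 S phase genes, by 0.63, against 21.4% of all tested genes. FO wild-type 1, without S100a8, had a higher mitotic mean than FO wild-type 2, 5.48 against 4.60. With the 4 arrays left out, the MZ homozygous minus heterozygous medians were 0.67 and 1.21. Of the 4, only MZ homozygous 1 enters this comparison, so these are the medians without that array alone.

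**Figure D5:**
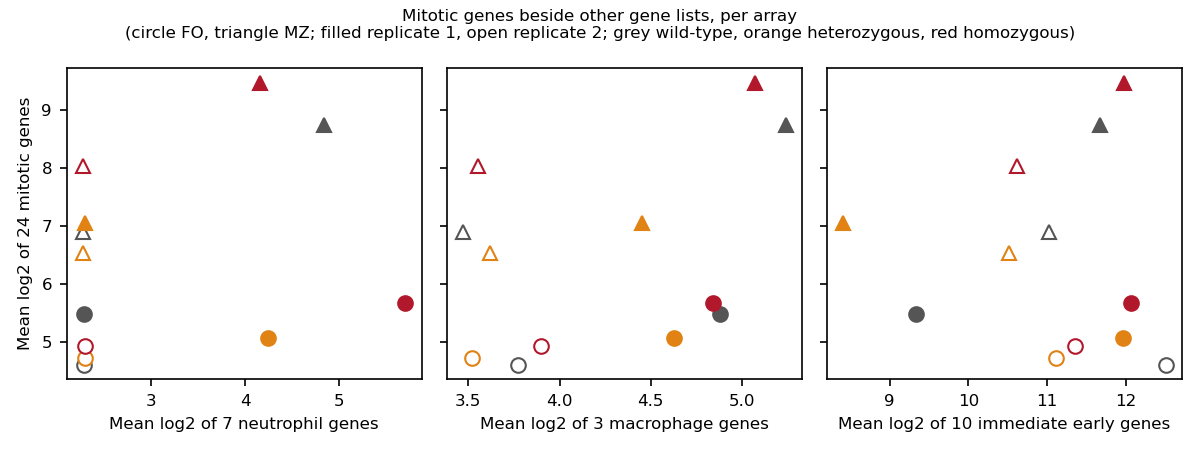
Mean log2 value of the 24 mitotic genes on each array (vertical) against the mean of 7 neutrophil, 3 macrophage and 10 immediate early genes (horizontal); circles are FO and triangles MZ, filled points replicate 1 and open points replicate 2, in grey (wild-type), orange (heterozygous) and red (homozygous). MZ homozygous 2, the open red triangle, lies at 8.03 with a neutrophil mean of 2.27.

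Other genes of the same pathways were counted from separate lists of 39 S phase and 42 mitotic genes, of which 36 and 41 passed the filter. In MZ homozygous against heterozygous arrays none was called by limma (0.0322% of all tested genes were). With p under 0.05 before adjustment, 11 and 26 were higher, against 2.76% of all tested genes. The medians were 0.45 and 1.54, against 0 over all tested genes. Of the 41 mitotic genes, 41 and 37 reached log2 4 on the MZ homozygous arrays, but 34 and 27 on the heterozygous arrays. Some thus passed the filter through arrays on which they were high, and part of their difference was built into the choice. The smallest p belonged to Espl1 (separase), at 2.84 ± 0.66 (adjusted p = 0.579), Ccnf (cyclin F), at 1.32 ± 0.32 (adjusted p = 0.595), and Pbk, a mitotic kinase, at 2.27 ± 0.64 (adjusted p = 0.805). Among S phase genes they were Lig1 (DNA ligase I), at 1.77 ± 0.44 (adjusted p = 0.595), Tipin, at 0.69 ± 0.19 (adjusted p = 0.769), and Pole, at 1.11 ± 0.36 (adjusted p = 0.827). Between MZ and FO cells, 25 of the 41 mitotic genes passed the filter through MZ arrays alone, so they are left out of the counts here. Of the other 16, 4 were higher and 1 lower in wild-type (median 0.80), 2 higher and 1 lower in heterozygous (0.21) and 6 higher and 1 lower in homozygous mice (1.70). Of all genes past the filter on FO arrays, 7.16% were higher and 12.1% lower in wild-type mice. The shares were 6.59% and 14.0% in heterozygous and 4.73% and 11.4% in homozygous mice. Cdca5 (sororin), which protects sister cohesion, was higher in wild-type mice by 4.94 ± 0.77 (adjusted p = 0.00222). Cdc25b, a phosphatase that activates Cdk1, was the gene lower in each genotype, in wild-type mice at -2.29 ± 0.31 (adjusted p = 0.00113). All 36 S phase genes passed on FO arrays, with 2 higher and 3 lower in wild-type (median 0.13), 1 higher and 4 lower in heterozygous (-0.13) and 8 higher and 1 lower in homozygous mice (0.42). The wild-type and heterozygous S phase counts are below the shares of all genes past that filter given above. The 5 wild-type calls were Gmnn (geminin), at 1.32 ± 0.23 (adjusted p = 0.00377), Chaf1b, at 1.72 ± 0.37 (adjusted p = 0.0117), Pold1, a catalytic subunit of DNA polymerase delta, at -1.35 ± 0.20 (adjusted p = 0.00196), Rfc1, at -0.95 ± 0.23 (adjusted p = 0.0173), and Rpa1, at -0.79 ± 0.21 (adjusted p = 0.0266).

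The choice of probe set was checked within genes. Of the 46 genes 26 had further probe sets that passed the filter, 32 in all. Of these 32, 32 had positive differences in MZ homozygous against heterozygous arrays, 30 against MZ wild-type arrays and 28 between wild-type MZ and FO cells, with 21 positive in FO homozygous against wild-type arrays. At the edge of the filter, the second highest value was 4.58 for Tyms, 4.69 for Plk1 and 4.99 for Gins2 just inside, and 3.37 for Foxm1 just outside.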

How the data were processed

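The authors deposited log2 expression values per probe set of an Affymetrix mouse array, computed by GCRMA, as the submitters' processing notes name it (per the submitters' processing notes, without a version). Settings are not given in the sources used here. Array medians over all probe sets were 2.394 to 2.506. The table held 45101 probe sets, 64 of them controls. The platform annotation gave 1 symbol for 34958, several for 932 and none for 9211, and only those with 1 symbol were used. The 6 group means were estimated together (lmFit, then eBayes, of limma 3.58.1 under R 4.3.3), leaving 6 residual degrees of freedom, with two-sided tests and Benjamini-Hochberg adjustment over the 9307 tested genes at 0.05. The fit was checked on simulated data. Differences are log2 differences ± SE. Members and lists were chosen with earlier results of these data known. Values on every array are given for widely used cell cycle markers, for each gene called in any contrast and for the 5 of each class with the widest range. Of other pathway genes, called ones and otherwise the 3 with the smallest p per class were eligible for naming. Alternatives changed the filter, the choice of probe set, the moderation of variances, weights and centring of arrays, and which arrays were fitted, with a replicate block and each array left out in turn. Leaving out the 4 arrays with S100a8, the filter within a cell type and medians of 4 more contrasts were chosen after seeing the data. The number of arrays limits the precision. In promoters, a gene with several start sites counts once for each.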

Additional observations from a re-analysis of the deposited data

Results flagged for a closer look

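Kif23, a subunit of centralspindlin, had differences of opposite sign in the 2 cell types between mice with 1 flox allele and wild-type mice, and neither passed limma's threshold. Heterozygous minus wild-type was 0.27 ± 0.70 (SE; Benjamini-Hochberg adjusted p = 1) in FO cells, where both heterozygous arrays (4.85 and 4.40) were above both wild-type arrays (4.37 and 4.34), as for 12.8% of all tested genes. It was -1.42 ± 0.70 (adjusted p = 0.792) in MZ cells, where both (6.61 and 6.15) were below both wild-type arrays (8.70 and 6.90), as for 17.8% of all tested genes. Without MZ wild-type 1 the MZ difference was -0.52. The difference between the cell types was not tested.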

How the results depend on the processing

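With 2 arrays a group, single arrays set most values. The MZ against FO counts in this section include genes kept through MZ arrays alone, in which a difference was built into the choice. Shares of all tested genes are not given beside them, so a rise or fall between settings cannot be read as particular to these genes. Leaving out each array in turn moved the genes called between 0 and 5 in MZ heterozygous against wild-type, and from 9 to 34 (wild-type), 3 to 22 (heterozygous) and 17 to 34 (homozygous) in MZ against FO; all other counts stayed at 0. S phase medians then ran from -0.07 to 0.13 (FO homozygous minus wild-type), -0.10 to 1.0 (the same in MZ), -0.02 to 0.49 (both cell types), 0.67 to 1.27 (MZ homozygous minus heterozygous), -1.09 to -0.06 (MZ heterozygous minus wild-type), and 0.47 to 1.58 (wild-type) and 0.40 to 0.74 (heterozygous) for MZ minus FO. Mitotic medians ran from -0.08 to 0.52 (FO homozygous minus wild-type), -0.03 to 1.92 (the same in MZ) and 1.21 to 2.87 (MZ homozygous minus heterozygous).

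Without the 4 arrays with S100a8, 12, 11 and 13 genes were called between MZ and FO in wild-type, heterozygous and homozygous mice, with S phase medians of 0.47, 0.57 and 1.14. The FO homozygous minus wild-type medians were -0.07 and -0.08, and those of MZ homozygous minus heterozygous 0.67 and 1.21. These repeat the values without FO homozygous 1 and without MZ homozygous 1, the only arrays of the 4 in these comparisons. The wild-type MZ minus FO median likewise repeats the value without MZ wild-type 1. A filter at log2 of 6 gave S phase medians of 0.57, 0.07 and 1.03 for MZ minus FO and 11 calls in heterozygous mice, over fewer genes. The mean of all probe sets gave S phase medians of 0.39 (heterozygous) and 1.18 (homozygous) and mitotic medians of 2.05, 1.47 and 2.53. Centring arrays gave 0.92 for S phase genes in heterozygous mice. The causes were not tested.

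The labels give no shared origin for equal replicate numbers, and same-numbered samples deviated together in some groups only: of 15 pairs of groups, 8 had a correlation of deviations over 0.1, with a range of -0.255 to 0.768. The numbers were therefore not used as pairs. With a replicate block 31, 26 and 35 genes were called between MZ and FO in wild-type, heterozygous and homozygous mice, against 23, 17 and 30 without it, and 0 in every other contrast.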
